A study of Mus musculus with 4 samples.

Results

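The expression of 9 keratin genes was examined in sorted basal cells of the E16.5 mouse epidermis that lacked serum response factor (SRF) or kept 1 unfloxed allele of its gene. The genes were the basal keratins Krt5, Krt14 and Krt15, the simple epithelial keratins Krt8, Krt18, Krt19 and Krt7, and the mucosal keratins Krt4 and Krt13. They were chosen by gene symbol, and all of their probe sets on the array were read: 16 of the 45037 probe sets that are not controls carried 1 of these symbols alone, and they stand for 9 of 18193 named genes. Of the 16, 11 passed the filter on dim probe sets (a mean log2 signal over the 4 arrays above the median of all probe sets, a signal of 65.9) and were tested. These 11 represent 7 of the 9 genes, since Krt19 and Krt13 lay below the filter with every probe set.

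The study compared 2 samples labelled Ko or KO in their titles (called cKO, SRF fl/fl) with 2 samples labelled het (SRF fl/+), on 1 array each. Both groups carried K14-Cre, a recombinase driven by the keratin 14 promoter and therefore active in the cells that make keratin 14, and a ROSA26 YFP reporter (fl/fl) that marks recombined cells. The cells were sorted on α6 integrin and YFP. The strain label of the het arrays reads only Rosa26, and the submitters' design text calls the fl/+ genotype WT, although it has a floxed allele and Cre. Each group has a title with either of the same numbers, so the arrays het_1210 and Ko_1210 are called set A here, and het_1261 and KO_1261 set B. What these numbers mark, and whether a sample was 1 embryo or a pool, the labels do not say. The p-values therefore measure only the spread between these samples, which may be technical.

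Keratins are the intermediate filament proteins of epithelia, and a filament is built from heterodimers of a type I and a type II keratin. Keratin 5 (type II) pairs with keratin 14 (type I) in basal keratinocytes, where this network anchors to hemidesmosomes and desmosomes and resists mechanical stress; keratin 15 is a further type I keratin of the basal layer and of hair follicle stem cells. Keratin 8 (type II) and keratin 18 (type I) form the filaments of simple epithelia, and in embryonic skin they mark the periderm, the transient outer layer, and Merkel cells, the touch-sensitive cells of the epidermis. Keratin 4 and keratin 13 pair in the suprabasal cells of non-cornified mucosa such as the oesophagus.

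The promoter windows of the main filament pairs are shown first, because the partners of a pair come from different genes. RefSeq's promoter table (GRCm38.p6) held 7 windows for 6 of the 9 genes, each with 250 bases before and 50 from an annotated start. The windows of Krt5 at chr15:101712856-101713155 (minus strand), Krt14 at chr11:100205981-100206280 (minus strand), Krt8 at chr15:102004293-102004592 (minus strand) and Krt18 at chr15:102027966-102028265 (plus strand) read, 5′ to 3′, as below, with motif matches on either strand in capitals.
Krt5: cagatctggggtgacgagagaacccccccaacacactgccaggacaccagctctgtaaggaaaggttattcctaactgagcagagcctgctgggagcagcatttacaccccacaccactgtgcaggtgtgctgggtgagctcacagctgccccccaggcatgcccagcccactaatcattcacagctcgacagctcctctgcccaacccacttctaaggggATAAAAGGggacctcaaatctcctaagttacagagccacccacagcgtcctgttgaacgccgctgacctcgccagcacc
Krt14: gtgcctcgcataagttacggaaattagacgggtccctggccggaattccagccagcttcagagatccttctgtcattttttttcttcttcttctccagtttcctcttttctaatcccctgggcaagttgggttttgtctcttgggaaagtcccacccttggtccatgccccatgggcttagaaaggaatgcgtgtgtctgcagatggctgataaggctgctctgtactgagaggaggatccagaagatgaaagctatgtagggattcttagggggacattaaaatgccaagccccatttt
Krt8: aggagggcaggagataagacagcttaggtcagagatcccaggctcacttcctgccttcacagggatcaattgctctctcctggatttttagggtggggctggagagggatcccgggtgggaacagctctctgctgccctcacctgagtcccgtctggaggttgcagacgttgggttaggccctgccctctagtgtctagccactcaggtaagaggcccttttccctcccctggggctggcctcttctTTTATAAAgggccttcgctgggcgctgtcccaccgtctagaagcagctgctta
Krt18: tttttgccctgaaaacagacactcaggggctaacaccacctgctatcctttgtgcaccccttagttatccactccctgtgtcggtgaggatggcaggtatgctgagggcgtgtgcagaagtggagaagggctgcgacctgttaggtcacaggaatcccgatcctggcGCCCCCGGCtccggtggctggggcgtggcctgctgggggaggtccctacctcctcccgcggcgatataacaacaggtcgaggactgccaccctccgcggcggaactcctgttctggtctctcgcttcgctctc
The capitals mark ATAAAAGG in Krt5, TATAAA on both strands in Krt8 (an overlapping match) and the AP-2 motif GCCNNNGGC in Krt18. In the Krt14 window nothing matched; it lies at an annotated start inside the span that RefSeq's gene table gives for Krt14, not at the 5′ end of that span. TATAAA was found in 1 of the 7 windows and in 13.6% of all 32851 promoters, GGGCGG (the Sp1 GC box) in 1 (Krt7) and 35.7%, and GCCNNNGGC in 2 (Krt7 and Krt18) and 16.6%. The CArG box, the motif that SRF binds, had no match in the 7 windows and was present in 1.63% of all promoters. Krt8 and Krt18 are neighbours on chromosome 15, with 0 protein-coding genes between them in RefSeq's gene table.

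Srf, the targeted gene, was lower in both cKO arrays: its brighter probe set read 834 and 1108 in the het arrays of sets A and B, and 47.9 and 80.4 in the cKO arrays. Whether that probe set lies in the floxed part is not known here. The sets differed technically, since poly-A spike-in controls were 2.41-fold (het) and 2.56-fold (cKO) brighter in set A than in set B. The ratio of the 3′ to the 5′ control probe set of Actb, a sign of RNA quality, was 2.75 (set A) and 2.002 (set B) in het and 3.12 and 2.43 in cKO, and so was higher in cKO within both sets; that of Gapdh was 0.871 and 0.782 in het and 0.914 and 0.771 in cKO. The part of RNA quality in the differences below was not tested. Each comparison is given within each set too and with the set as a block in limma. Over all tested probe sets 0 of 22518 passed an adjusted p of 0.05 in limma without the block (0% called; 108, or 0.48%, had an unadjusted p under 0.05), and 194 passed with it (0.862%, with 82 higher and 112 lower in cKO). The fit with the block has 1 residual degree of freedom and leans on a variance shared across probe sets. Xist, transcribed from the inactive X chromosome, read 62.6 and 115.4 on the set A arrays (het, then cKO) and 14338 and 22802 on the set B arrays. The Y-linked gene Eif2s3y read 1485 and 1386 on the set A arrays, but 834 in het and 3.01 in cKO of set B, so het_1261 had signal from both genes and KO_1261 from Xist alone. Within set B genotype and this difference cannot be told apart, and the block does not separate them. The part of sex in the differences below was not tested.

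The basal keratins Krt5, Krt14 and Krt15 overlapped between het and cKO at all 4 of their bright probe sets, and none of these passed in either fit. The signal of Krt5 was 57958 (set A) and 36834 (set B) in het, against 50933 (set A) and 35313.5 (set B) in cKO. The groups overlapped, and both set A arrays were above both set B arrays. Means of 47396 ± 14937 for het and 43123 ± 11044 for cKO (SD, n = 2) gave a difference of -0.12 ± 0.38 (SE) on the log2(signal + 1) scale, in which all differences below are given as cKO minus het. Within the sets it was -0.19 (A) and -0.06 (B). With the block the SE was 0.12 and the 95% interval -0.36 to 0.11 (limma, adjusted p = 0.833). Krt5 differed more between the sets than between the genotypes: set A was 1.57-fold above set B in het and 1.44-fold in cKO. The highest signal of any probe set was also greater in set A (76302 in het, 65749 in cKO) than in set B (47549 and 45890). After quantile scaling, without the block, the Krt5 difference was -0.02 ± 0.06 (SE).

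Krt14, the type I partner of Krt5, was read by 3 probe sets. At the brightest, 1460347_at, the het arrays read 59598 (set A) and 35520.1 (set B) and the cKO arrays 53068 and 36033. The order of the arrays thus followed the set again, and het and cKO overlapped. The difference was -0.07 ± 0.40, or -0.17 within set A and 0.02 within set B, with an interval of -0.31 to 0.17 in the fit with the block (adjusted p = 0.917). Its sign is not settled, since it was 0.049 after median centring and 0.037 after quantile scaling. The probe set 1423935_x_at gave signals of 55416.5 and 31251.5 in het and 44845 and 30828 in cKO (set A, then set B, as in all such values below), and a difference of -0.16 (-0.31 and -0.02). In Affymetrix names the ending x_at marks probe sets with probes that may also match other sequences, which among the closely related type I keratins is a limit on this one.

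Krt15 read 47673.5 and 32809.8 in het and 39921.5 and 30497 in cKO. Within each set the cKO array was the lower one (differences of -0.26 and -0.11), while over all arrays the groups overlapped. The difference was -0.18 ± 0.34, with a block interval of -0.42 to 0.06 (adjusted p = 0.7). By gene, the median of the 3 basal keratins was -0.12, beside -0.02 over the 11053 genes tested, and became -0.0017 after median centring, which moved the median of all genes to 0.10. The 4 bright probe sets lay at 60.7% to 80.7% of the highest signal on their array; whether such brightness compressed differences was not tested.

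**Figure D1:**
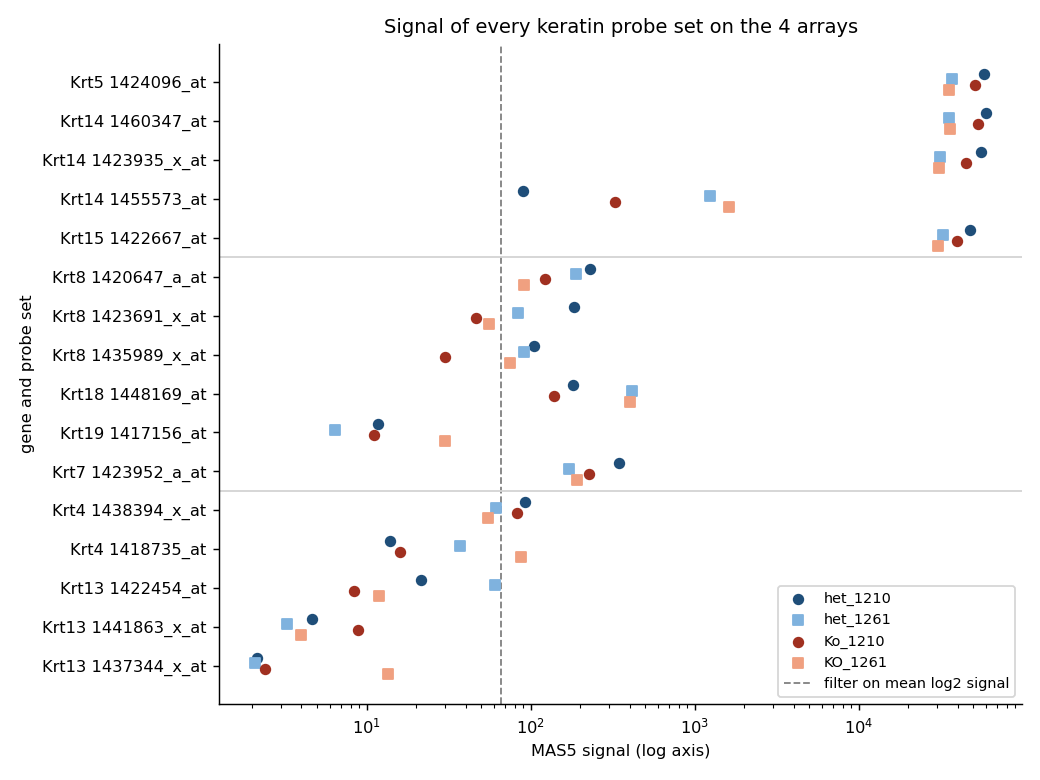
The MAS5 signal (log axis) of each of the 16 keratin probe sets is plotted for each array, with circles for set A, squares for set B, blue for het and red for cKO. The grey dashed line is the signal of 65.9 used as filter on the mean. The bright Krt5, Krt14 and Krt15 probe sets sit between 30497 and 59598 on all arrays, Krt8, Krt18 and Krt7 lie between 30.1 and 412.7, and Krt19 and Krt13 stay left of the line.

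The remaining Krt14 probe set, 1455573_at, behaved unlike the other ones and was the only one of the 11 tested keratin probe sets to pass in any fit. It read 90.3 and 1243 in het and 324.5 and 1608 in cKO. Here the set B arrays were the higher ones, 13.8-fold above set A in het and 4.95-fold in cKO, which is the opposite order to the bright Krt14 probe sets. Within both sets cKO was above het, by 1.83 in A and 0.37 in B. It rose by 1.10 ± 0.24 in limma with the block (unadjusted p = 5.81e-05, adjusted p = 0.0122) and did not pass without the block (1.10 ± 1.42, adjusted p = 1), with a robust variance prior (adjusted p = 0.386) or without the variance trend (0.736). In the fit without the block the difference was -0.78 without het_1210 and -0.05 without KO_1261. The annotation gives no accession for this probe set, and which part of a transcript it reads is not known here, so it is not taken as the level of Krt14 mRNA. With 1 of 11 tested keratin probe sets called, beside 0.862% of all tested, the count rests on this one probe set.

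Among the simple keratins, Krt8 was lower in cKO at all 3 of its probe sets, with no overlap between the groups, but none of the 3 passed adjustment, and only the brightest was above the filter in both groups. The brightest, 1420647_a_at, read 229.0 and 187.4 in het and 122.1 and 91.4 in cKO. Both cKO arrays were thus below both het arrays, by a like amount in both sets. With means of 208.2 ± 29.4 (het) and 106.7 ± 21.7 (cKO; SD, n = 2), het was 1.95-fold higher, and the difference was -0.97 ± 0.39 (-0.90 within set A and -1.03 within set B). Limma gave unadjusted p = 0.0564 and adjusted p = 1 without the block. With it these were 0.00569 and 0.221, and the 95% interval was -1.63 to -0.30. Of all tested probe sets 1.84% were lower in cKO with an unadjusted p under 0.01 in that fit.

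The second Krt8 probe set, 1423691_x_at, had signals of 183.5 and 84.1 in het and 46.6 and 55.6 in cKO. Both cKO values lay below the filter's signal of 65.9, so it passed the filter only through het, and the size of the difference, -1.27 ± 0.56 (-1.95 and -0.59), is imprecise. It did not pass without the block (unadjusted p = 0.0719) or with it (0.0122, adjusted p = 0.321). The third, 1435989_x_at, read 105.1 and 91.0 in het and 30.1 and 75.0 in cKO, and it too passed the filter only through het, its cKO mean being below. Its difference was -1.02 ± 0.61, far larger within set A (-1.77) than within set B (-0.28), and its block interval, -2.09 to 0.05, included 0. With 1 array left out the 3 Krt8 differences ranged from -1.83 to -0.38. Their sign could not turn there, since the groups did not overlap. That both cKO arrays lie below both het arrays is common, as 10.4% of all tested probe sets do so. These probe sets report 1 gene on the same arrays and are not replicates of the condition. In a sorted bulk sample fewer cells that express a gene and less RNA per cell cannot be told apart.

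Krt18, the type I partner of Krt8, overlapped between the groups. It read 180.4 and 412.7 in het and 139.5 and 405.3 in cKO. Set B was 2.29-fold above set A in het and 2.91-fold in cKO, while the genotypes differed by -0.37 within set A and by -0.03 within set B. The mean difference was -0.20 ± 0.68, with a block interval of -0.72 to 0.32 (adjusted p = 0.891), which overlaps that of the brightest Krt8 probe set. Whether the Krt8 and Krt18 differences themselves differ was not tested.

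**Figure D2:**
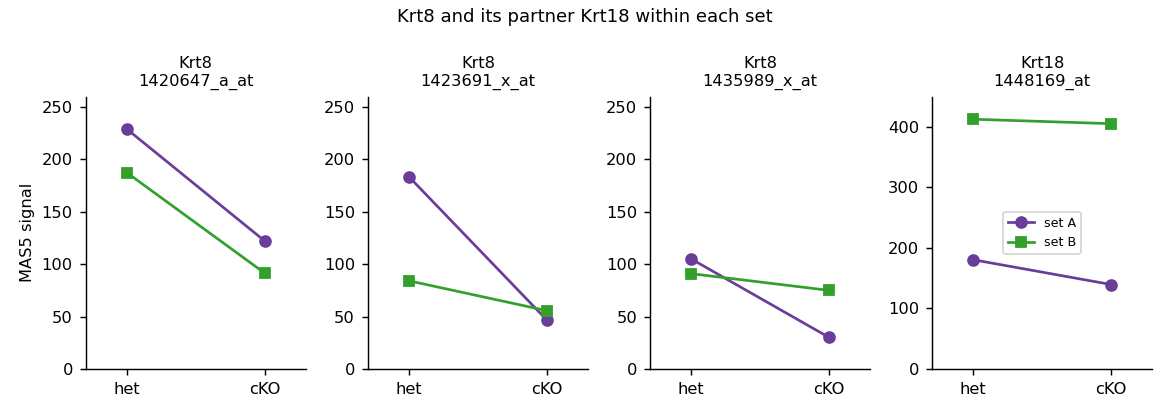
Each panel plots the MAS5 signal (linear axis from 0) of a probe set in het and cKO, with a line for set A (circles) and one for set B (squares); the Krt18 panel has its own scale. The lines of all 3 Krt8 probe sets go down from het to cKO, while for Krt18 the distance between the lines exceeds the change along either.

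Krt7, a type II keratin of ductal and glandular epithelia, read 343.2 and 170.1 in het and 228.0 and 191.0 in cKO. The cKO array was lower in set A (-0.59) and higher in set B (0.17), so the sets did not share a direction. The difference was -0.21 ± 0.46, with a block interval of -0.77 to 0.35 (adjusted p = 0.891). Krt19, the smallest keratin, which is known from simple epithelia and hair follicles, was dim on all arrays: 11.7 and 6.41 in het, and 11.1 and 30.0 in cKO. All 4 values lay below the filter, so Krt19 was not tested, and no fold change is given for it.

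The mucosal pair Krt4 and Krt13 was near background. The brighter Krt4 probe set, 1438394_x_at, had signals of 92.2 and 61.7 in het and 82.5 and 54.5 in cKO, which overlap. Its difference was -0.17 ± 0.51, nearly the same within both sets (-0.16 and -0.18), with a wide block interval of -1.18 to 0.85 (adjusted p = 0.96). The other Krt4 probe set, 1418735_at, read 13.8 and 37.0 in het and 15.9 and 87.5 in cKO. There cKO was higher within both sets (0.19 and 1.22), opposite to 1438394_x_at, and the mean log2 signal lay below the filter. For Krt13 all 3 probe sets were below it: 1422454_at had signals of 21.5 and 60.6 in het and 8.39 and 11.9 in cKO, and the remaining ones stayed between 2.10 and 13.4. The het values of 1422454_at were above both cKO values, at a level where MAS5 signals are imprecise. In limma with the block and no filter, added after seeing the data, its unadjusted p was 0.1. The remaining Krt13 probe sets went the other way within both A and B, by 0.80 and 0.22 (1441863_x_at) and by 0.11 and 2.22 (1437344_x_at).

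**Figure D3:**
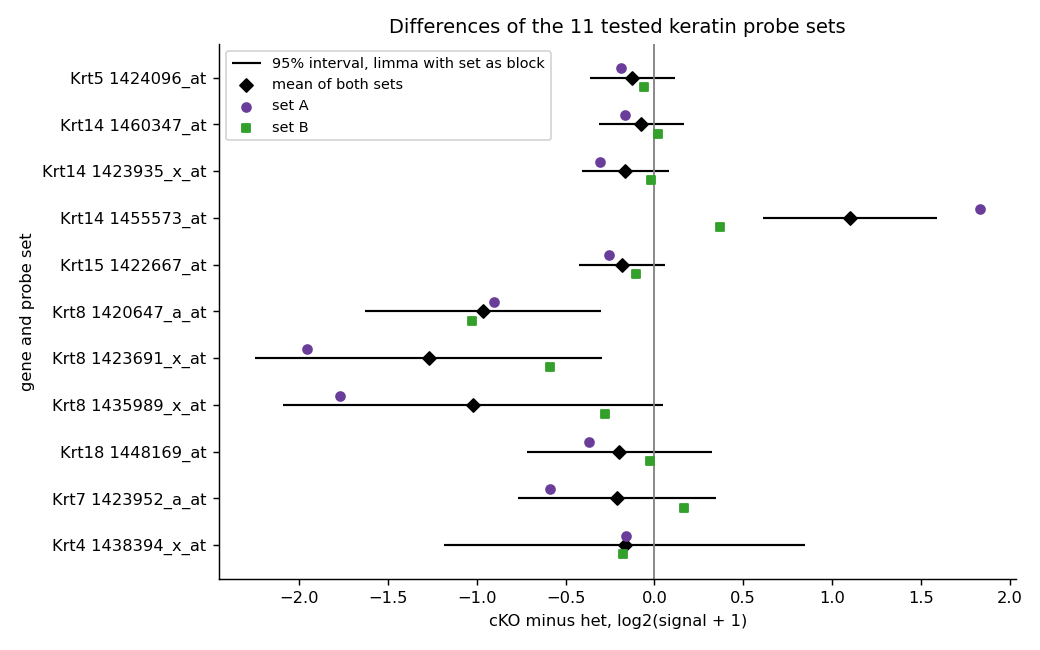
The difference cKO minus het in log2(signal + 1) is plotted for the 11 tested probe sets: circles within set A, squares within set B, diamonds for their mean and bars for the 95% interval in limma with the set as a block. The bars of Krt5, the bright Krt14 probe sets, Krt15, Krt18, Krt7 and Krt4 cross 0, and that of 1455573_at lies right of 0. Those of 2 of the 3 Krt8 probe sets lie left of it before any adjustment for the number of tests. Of these 2, 1423691_x_at passed the filter only through het.

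Likeness of pattern was measured over the 4 arrays as the Euclidean distance between log2 signals, each centred on its own mean, with 11052 other genes compared. Krt14 ranked 179 among the genes nearest to Krt5, at a distance of 0.0853, and 247 genes lay within 0.1 of Krt5. The dim Krt4 was slightly nearer to Krt5, at rank 172 (0.0842), and Krt15 ranked 500 (0.140). The genes nearest to Krt5 were Rps29, Gtf2b and Tmsb10, those nearest to Krt14 were Rps26, Anapc5 and Rp9, and those nearest to Krt15 were Trip6, Dennd2d and Get4. The pattern of the basal keratins, higher in set A and nearly flat between genotypes, was thus shared with many genes. Krt18 ranked 10602 for Krt8, at a distance of 1.89, and Krt8 ranked 8815 for Krt18. Nearest to Krt8 were Kdm4b, Sspo and Dcc, with only 1 gene within 0.1, and nearest to Krt18 were A930013F10Rik, Kdm6b and Tiparp. For Krt7 they were Elp6, Mab21l4 and Mthfsd, and for Krt4 they were Washc3, Nsmce4a and Stx6. With 4 arrays such distances describe these arrays only.

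The genes around the keratin network were read by their brightest probe sets, and over all 11053 such genes 0.878% were called with the block and 0% without it (5112 were higher and 5941 lower in cKO). Of 18 tested keratin linkers and regulators 0 passed in either fit, with 7 higher and 11 lower in cKO and a median of -0.12 (-0.10 and -0.09 within the sets). Plakoglobin (Jup), a desmosomal plaque protein, had the smallest p, with signals of 3472 and 2564 in het and 1913 and 2361 in cKO and a difference of -0.49 ± 0.17 (block SE, adjusted p = 0.228). Trim29 differed by -0.33, Sfn, a 14-3-3 protein of stratified epithelia, by -0.28 and envoplakin (Evpl), a cornified envelope protein that binds keratins, by -0.32. Of 21 tested regulators of epithelial genes, which are transcription factors apart from the splicing regulators Esrp1 and Esrp2, 0 passed in either fit as well, 10 being higher and 11 lower (median -0.03). Cebpa, a regulator of differentiation, differed by -0.55 (adjusted p = 0.171 with the block), Ets2 by 0.36, Elf3 by -0.46 and Cebpb by -0.21.

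Of 12 tested other epithelial keratins, 5 were higher and 7 lower in cKO. With the block 2 passed as lower and 2 as higher, and 0 passed without it. Krt1 and Krt10, the pair that replaces keratins 5 and 14 in spinous cells, fell by 0.80 ± 0.14 (-1.16 and -0.43) and 0.66 ± 0.13 (-0.90 and -0.42). The wound keratins Krt6a and Krt6b rose by 1.32 ± 0.33 (0.02 and 2.63) and 3.44 ± 0.50 (1.54 and 5.35), mainly within set B. Krt6b read 48.2 and 21.3 in het, below the filter, and 141.6 and 906 in cKO, so it passed the filter only through cKO and the size of its difference is imprecise. The sequences of Krt6a and Krt6b are so alike that a probe set of one may detect the other, and neither passed with the robust prior (adjusted p = 0.874 and 0.772). Of 6 tested non-keratin intermediate filament genes only vimentin (Vim), the filament protein of mesenchymal cells, passed with the block and fell by 0.71 ± 0.17 (-1.20 and -0.22), but not with the robust prior (0.301). Nestin (Nes) differed by -0.59, and the nuclear lamins Lmna and Lmnb1 by -0.12 and 0.06.

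Markers of the cells that carry the keratins were read from fixed lists, without the 9 keratins themselves. The 7 basal markers were all well above the filter: Itga6, Itgb4, Itgb1, Trp63, Col17a1, Lamb3 and Cdh3 had signals from 851 to 16953. In cKO 6 were higher and 1 lower, with a median of 0.19 (0.32 within set A and -0.02 within set B), and 0 of 7 passed in either fit. Of the Merkel cell markers 0 of 10 passed the filter. Their summed signal was 337.5 and 287.6 in het and 305.2 and 278.7 in cKO, and the defining genes Atoh1, at 28.9 to 52.8, and Krt20, at 4.81 to 19.2, were near background on all arrays. Sox2 read 81.2 and 32.2 in het and 23.1 and 17.4 in cKO, while Isl1 read 16.8 and 6.90 in het and 54.1 and 36.5 in cKO. For the periderm list, 6 of 7 genes were tested, 4 of them higher and 2 lower, and Krt6a alone passed. The summed periderm signal was 30351 and 19732 in het and 18523 and 19463 in cKO, most of it Krt17 (22346, 8581, 11473 and 8048.5 on the same arrays), which hair follicles express as well. The other tested ones did not pass: Krt17 differed by -0.53, Sfn by -0.28, Grhl3 by 0.11, Cldn4 by 0.57 and Gabrp by 0.06. The part of Merkel cells or periderm in the Krt8 values was not tested.

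Spinous and granular markers summed to 146882 and 95254.5 in het and 92765 and 74876.5 in cKO. Of 9 tested 7 were lower, and 3 of these passed with the block (Krt1, Krt10 and Sbsn). The 2 higher ones were Lor, by 0.47 (1.68 and -0.75 within the sets), and Ivl, by 0.48 (1.75 and -0.78). Dermal fibroblast markers summed to 48856 and 41119 in het and 36170.1 and 37597 in cKO, and 8 of 10 tested were lower. Of these Col3a1, Twist2 and Vim passed with the block, though none under the robust prior (0.106, 0.142 and 0.301). The 2 higher ones were Dcn, the brightest of the list, by 0.06 (0.13 and -0.02), and Pdgfra, by 0.75 (0.64 and 0.87). Hair follicle markers summed to 26715 and 11648 in het and 14128 and 10695 in cKO. Of 8 tested 7 were lower and 1 higher, and Lhx2 alone passed with the block. Immune markers summed to 720.4 and 747.5 in het and 348.2 and 596.0 in cKO, and all 3 tested were lower. Laptm5 alone passed with the block, though not under the robust prior (0.0682). Melanocyte markers summed to 1461 and 770.0 in het and 796.7 and 748.9 in cKO, and endothelial markers to 507.7 and 451.5 in het and 334.0 and 348.4 in cKO. All 5 tested melanocyte and all 4 tested endothelial markers were lower in cKO, but 0 passed in either fit. For skeletal muscle (3 tested) and Schwann cell (1) markers 0 passed in either fit, and the erythroid markers (2 on the array) lay below the filter, with sums of 77.0 and 78.1 in het and 15.1 and 41.7 in cKO. The markers of oral and oesophageal epithelium, which bear on Krt4 and Krt13, summed to 177.3 and 341.4 in het and 250.9 and 98.5 in cKO over 4 genes, of which only Krt78 was tested, at -0.01. Of the markers of simple internal epithelium Epcam was bright (4215 to 5257) and did not differ beyond its spread (0.05 ± 0.14), while Cdh17 and Muc1 stayed between 3.18 and 41.0. The summed spinous, periderm, fibroblast, immune, endothelial and erythroid signals were lower in both cKO arrays than in both het arrays. For the periderm the margin was small (19463 in KO_1261 against 19732 in het_1261), and 4 of its 6 tested markers were higher in cKO. A sum follows its brightest genes: the erythroid sum followed Alas2, as Hba-a1 stayed between 5.59 and 7.34. Of single tested probe sets 10.4% had such an order of the arrays, and no share was taken over sums. The part of these cell types in the Krt8 values was not tested.

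**Figure D4:**
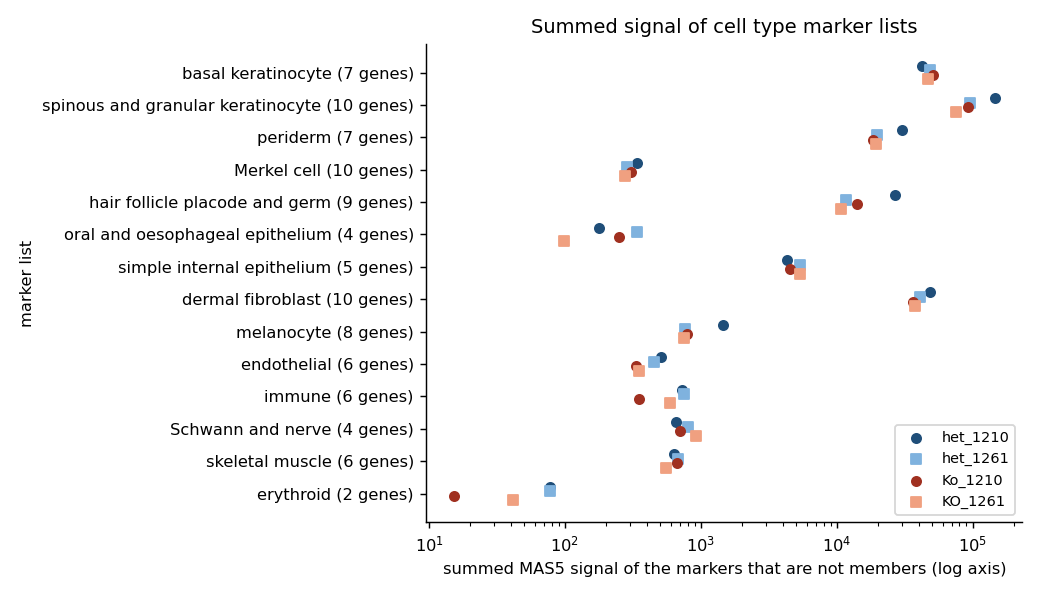
The summed MAS5 signal (log axis) of each marker list, without the 9 keratins, is plotted for each array, in the colours and symbols of the signal plot. The Merkel cell list stays between 278.7 and 337.5 on all arrays. The spinous, periderm, fibroblast, immune, endothelial and erythroid sums, which follow their brightest genes, are lower in both cKO arrays than in both het arrays.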

How the data were processed

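Basal epidermal cells of 4 samples were profiled on 1 array each (2 het, 2 cKO). Per the labels' protocols, Trizol RNA was biotin-labelled with a 3' IVT kit. The values deposited by the authors are intensity values on a linear scale; the submitters' processing notes name MAS5, with the version not given in the sources used here. Their mean, with 2% of probe sets trimmed at each end, was 500.0 on every array, so differences are relative to a common scale, and 4 arrays limit the precision.

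Of 45101 probe sets 64 controls were left out. Symbols of the platform annotation were replaced by those RefSeq's gene table gives for the Entrez identifier: 34945 probe sets had 1 symbol (34741 matched by identifier), 932 several and 9160 none. For a gene with several probe sets, the one of highest mean signal stood for it. Values were transformed as log2(signal + 1). Those 22518 probe sets whose mean log2 signal exceeded the median entered limma 3.58.1 in R 4.3.3 (lmFit, then eBayes with trend, two-sided). P-values were adjusted over all of them by Benjamini-Hochberg, at a threshold of 0.05. The main test had no block; the set, from the title numbers, was a block beside it. In simulated data, with noise drawn from the variances of the fit with the block, both fits returned the mean sizes of the changes put in, which the balanced design ensures. The fit without the block called none of them, and more than the nominal share of the calls with the block were false. Other scalings, pseudocounts, filters, variance priors and leaving out each array were tried. All probe sets of the 9 keratins are named; of each of the 4 pathway lists (keratin linkers, regulators, other keratins, other intermediate filaments) the genes that passed, then those with the smallest p with the block, up to 4. Markers of cell types were named outside that rule. The keratins and the lists were chosen with earlier results of these data known. Plots were made in Python 3.11.15 (matplotlib 3.10.9).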

Additional observations from a re-analysis of the deposited data

How the results depend on the processing

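Without a block 0 of the 11 tested keratin probe sets passed, and 0 also under quantile scaling, median centring, a pseudocount of 16, no filter, the stricter filter (a signal of 200, which kept 5 of the 11), no variance trend, and with any 1 array left out (0 to 0). With the replicate block 1 passed (Krt14 1455573_at, 1.10), and 1 with the block and median centring (1.22). The sets are not shown to pair animals: deviations from the group means correlated at 0.755 between the arrays of a set, and there are only 2 sets. By gene and without the block, 0 of 7 were called with the brightest probe set and 0 with every probe set; with the block, Krt14 was called through 1455573_at alone. Over all probe sets 0 passed without the block, 194 with the replicate block, 109 with the block and median centring (74 higher, 35 lower), 84 with the block and a robust prior, 17 with the block and no filter (added after seeing the data), and 0 with the block and no variance trend; leaving out 1 array gave 0 to 5. Median centring moved the median difference of all tested probe sets from -0.01 to 0.11.

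The sign of Krt14 1460347_at turned under quantile scaling (0.037) and under median centring with and without the block (0.049). With 1 array left out and no block the sets are unbalanced between the groups, and the difference ranged from -0.45 to 0.20 for Krt5, -0.45 to 0.30 for Krt14 1460347_at, -0.58 to 0.25 for 1423935_x_at, -0.78 to 2.99 for 1455573_at, -0.45 to 0.089 for Krt15, -0.96 to 0.57 for Krt18, -0.71 to 0.29 for Krt7 and -0.46 to 0.13 for Krt4. For Krt8 the ranges were -1.17 to -0.76, -1.83 to -0.71 and -1.67 to -0.38. Krt8 kept its direction at all 3 probe sets in every alternative that tested it, with an adjusted p from 0.221 to 1 at the brightest. With 1 array left out or another pseudocount that direction was fixed beforehand, since the groups did not overlap. The block, filter and variance settings leave the difference itself unchanged. Only median centring and quantile scaling could have turned it, and they gave -0.84 and -0.87 at the brightest probe set without the block. The cause of the shifts between settings was not tested.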

Other observations

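A further probe set, 1427841_at, carries the symbols of both Krt14 and Krt17 and was therefore given no gene name. It read 375.8 (set A) and 276.5 (set B) in het against 305.4 and 197.6 in cKO. The cKO array was the lower one within both sets, and the groups overlapped (limma with the block, adjusted p = 0.68).

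The letters ATAAAAGG, a TATA-like stretch noticed after the promoter windows had been seen, stood in 3 of the 7 keratin windows, at -29 from the annotated start in Krt5 and in 1 of the Krt13 windows and at -7 in Krt7, and in 1.76% of all promoters of the same length. Because the stretch was picked from these windows, the count supports nothing beyond the description. The levels of the 3 genes on these arrays were unlike each other, with Krt5 far above the filter and Krt13 below it.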
